A study of Mus musculus with 12 samples.

Results

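Cockroach allergen reaches the alveolar epithelium as a mixture of proteases, bacterial and fungal products and other ligands, and 10 genes of the receptors and shared factors that can sense such material were followed here. They were taken by symbol from the combined table of read counts: the protease-activated receptors F2rl1 (PAR2) and F2r (PAR1), the Toll-like receptors Tlr2, Tlr3, Tlr4 and Tlr5, the co-receptor Cd14, the adaptor Myd88, the cytosolic peptidoglycan sensor Nod1 and the beta-glucan receptor Clec7a (Dectin-1). All 10 were found among the 55450 genes of the files, and all 10 were among the 20612 genes with enough reads to be tested. The RNA came from type II alveolar epithelial (AT2) cells of C57BL/6 mice aged 6 to 8 weeks. AhRfl/fl mice, labelled WT, carry floxed alleles of the gene for AhR (aryl hydrocarbon receptor) and served as controls. Ligands turn AhR into an active transcription factor. Sftpc-Cre;AhRfl/fl mice, labelled KO, also carry Cre under the promoter and enhancer elements of the surfactant protein C gene (Sftpc). The floxed alleles are thus recombined where Sftpc is active, which the paper says may not be in AT2 cells alone. Cells of these mice are called AhRfl/fl and Sftpc-Cre cells below. Cells of each genotype were cultured on collagen I and given PBS or cockroach extract (CRE) at 50 µg/ml for 24 h, with 3 libraries in each of the 4 groups. Nothing in the labels says that the libraries of a group came from separate mice, so the p-values measure the spread between these samples, which may be technical.

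Protease-activated receptors are G protein-coupled receptors that proteases switch on by cutting their extracellular end, which exposes a tethered ligand. Toll-like receptors bind microbial molecules and, with the exception of Tlr3, signal through Myd88 to the transcription factor NF-kB. Cd14 hands lipopolysaccharide and lipopeptides to Tlr4 and Tlr2. In the airway epithelium, PAR2 and Tlr4 are known as entry points for mite and cockroach allergens, and Clec7a and most other C-type lectin receptors are best known from myeloid cells.

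Each library held 68878065 to 80935797 counted reads, of which the 10 top genes took 4.73 to 5.53%. Values are given as CPM (the share of a library that a gene takes, after TMM scaling), and levels of different genes are compared as FPKM, which divides by gene length. Ahr itself, counted over the whole gene, stood at 44.0 ± 1.10 CPM in AhRfl/fl cells and 45.2 ± 4.73 CPM in Sftpc-Cre cells with PBS (SD, n = 3), and a count over the whole gene does not show the loss of part of it. Its target Cyp1b1 was 384 ± 34.6 against 44.7 ± 13.7 CPM with PBS (SD, n = 3), which is -3.10 on the log2 scale with an adjusted p of 8.79e-04 (edgeR quasi-likelihood test, Benjamini-Hochberg adjustment). Cyp1a1, also read as a check of the deletion, stood at 31.4, 21.1 and 19.8 CPM in the AhRfl/fl libraries with PBS. In the Sftpc-Cre libraries with PBS it stood at 11.2, 6.43 and 5.11 CPM, and it did not pass in the same test. The 10 AT2 markers examined summed to 4512 to 9190 CPM and the 3 club cell markers to 3976 to 8089 CPM. The sums were 1119 to 2398 CPM for 8 AT1 markers, 76.1 to 219 CPM for 11 alveolar macrophage markers other than Lyz2, 15.2 to 215 CPM for 10 markers of other leukocytes, 75.0 to 271 CPM for 6 fibroblast markers, 42.4 to 83.3 CPM for 6 endothelial markers and 56.2 to 152 CPM for 3 markers of ciliated cells, and no marker of these lists was at 0 in every library. The libraries numbered 1 stood apart in every group, with 9 of the 12 macrophage markers (Lyz2 included) and 7 of the 10 other leukocyte markers at their highest there. In bulk RNA, fewer cells of a type and less RNA per cell cannot be told apart.

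Promoter windows from RefSeq, 250 bases before to 50 bases after the start of transcription on GRCm38.p6, covered 7 of the 10 genes with 9 windows. F2rl1, Tlr4 and Cd14 had no window and were not searched. Windows are shown for the genes whose windows hold the NF-kB consensus, searched by name on both strands, because NF-kB is the factor that these receptors activate. The Tlr2 window held 2 matches and the Tlr3 window held 1, and 0 were found in the windows of Tlr5, Nod1, Clec7a, Myd88 and F2r. Among all 32851 promoter windows, 8.46% held at least 1 match and 0.521% held 2 or more matches that did not overlap. The windows below lie at chr3:83841559-83841858 (Tlr2) and chr8:45410331-45410630 (Tlr3), are written 5′ to 3′ along the minus strand on which both genes lie, and have the matches in capitals.
Tlr2: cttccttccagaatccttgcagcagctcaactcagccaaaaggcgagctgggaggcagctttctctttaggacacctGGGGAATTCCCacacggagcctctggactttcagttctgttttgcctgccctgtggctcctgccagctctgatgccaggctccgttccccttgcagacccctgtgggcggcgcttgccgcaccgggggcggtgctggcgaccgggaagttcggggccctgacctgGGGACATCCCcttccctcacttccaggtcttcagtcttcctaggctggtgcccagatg
Tlr3: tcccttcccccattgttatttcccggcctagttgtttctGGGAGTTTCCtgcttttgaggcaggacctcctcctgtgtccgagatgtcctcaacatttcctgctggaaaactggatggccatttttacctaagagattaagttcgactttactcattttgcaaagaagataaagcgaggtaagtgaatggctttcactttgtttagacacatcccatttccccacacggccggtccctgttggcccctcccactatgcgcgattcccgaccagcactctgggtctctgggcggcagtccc
The matches in the Tlr2 window were GGGGAATTCCC at bases 78 to 88 and GGGACATCCC at bases 243 to 252, and the match in the Tlr3 window was GGGAGTTTCC at bases 40 to 49, counted from 1 at the 5′ end of each window. The core motif to which AhR binds, GCGTG on either strand, was held by 32.4% of all windows, by the F2r window with 2 matches and by 1 of the 2 Nod1 windows with 1 match. These are matches of letters and not measured binding sites.

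All 10 genes were detected in all 12 libraries, with the lowest count, 307 reads, for Clec7a. Per length, F2rl1 was the highest with a mean of 39.3 FPKM over the 12 libraries and a range of 28.3 to 47.3 FPKM. Cd14 followed at 34.4 FPKM (14.5 to 61.2), F2r at 21.4 FPKM (16.8 to 28.7) and Myd88 at 17.5 FPKM (15.3 to 20.8). The ranges of neighbours in this order overlapped down to Myd88, but that of Myd88 lay wholly above that of Tlr2, at 8.65 FPKM (5.33 to 12.3). Tlr4 stood at 7.97 FPKM, Clec7a at 6.23, Tlr3 at 2.68, Nod1 at 2.01 and Tlr5 at 1.83, and each of these ranges overlapped with that of its neighbour. Over the 12 libraries the protease receptors and the lipopolysaccharide co-receptor thus had the highest means and the flagellin receptor Tlr5 the lowest mean. The top of this order depended on the treatment. With PBS, Cd14 averaged 23.6 FPKM in AhRfl/fl and 16.8 FPKM in Sftpc-Cre cells, beside 39.7 and 44.7 FPKM for F2rl1. With CRE, Cd14 averaged 53.2 and 44.0 FPKM, beside 35.0 and 37.7 FPKM for F2rl1. In Sftpc-Cre cells with PBS, F2r (24.2 FPKM) also lay above Cd14. By median over the 12 libraries the order differed at the lower end. The median of Tlr5 (1.73 FPKM) lay above that of Nod1 (1.70), and that of Clec7a (2.69) below that of Tlr3 (2.90). Set among all 20612 genes by mean CPM, Tlr5 lay at percentile 51.6 and F2rl1 at percentile 91.2. Clec7a varied most between libraries, with its highest FPKM 13.1 times its lowest, against 4.22 times for Cd14 and 1.36 times for Myd88.

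**Figure D1:**
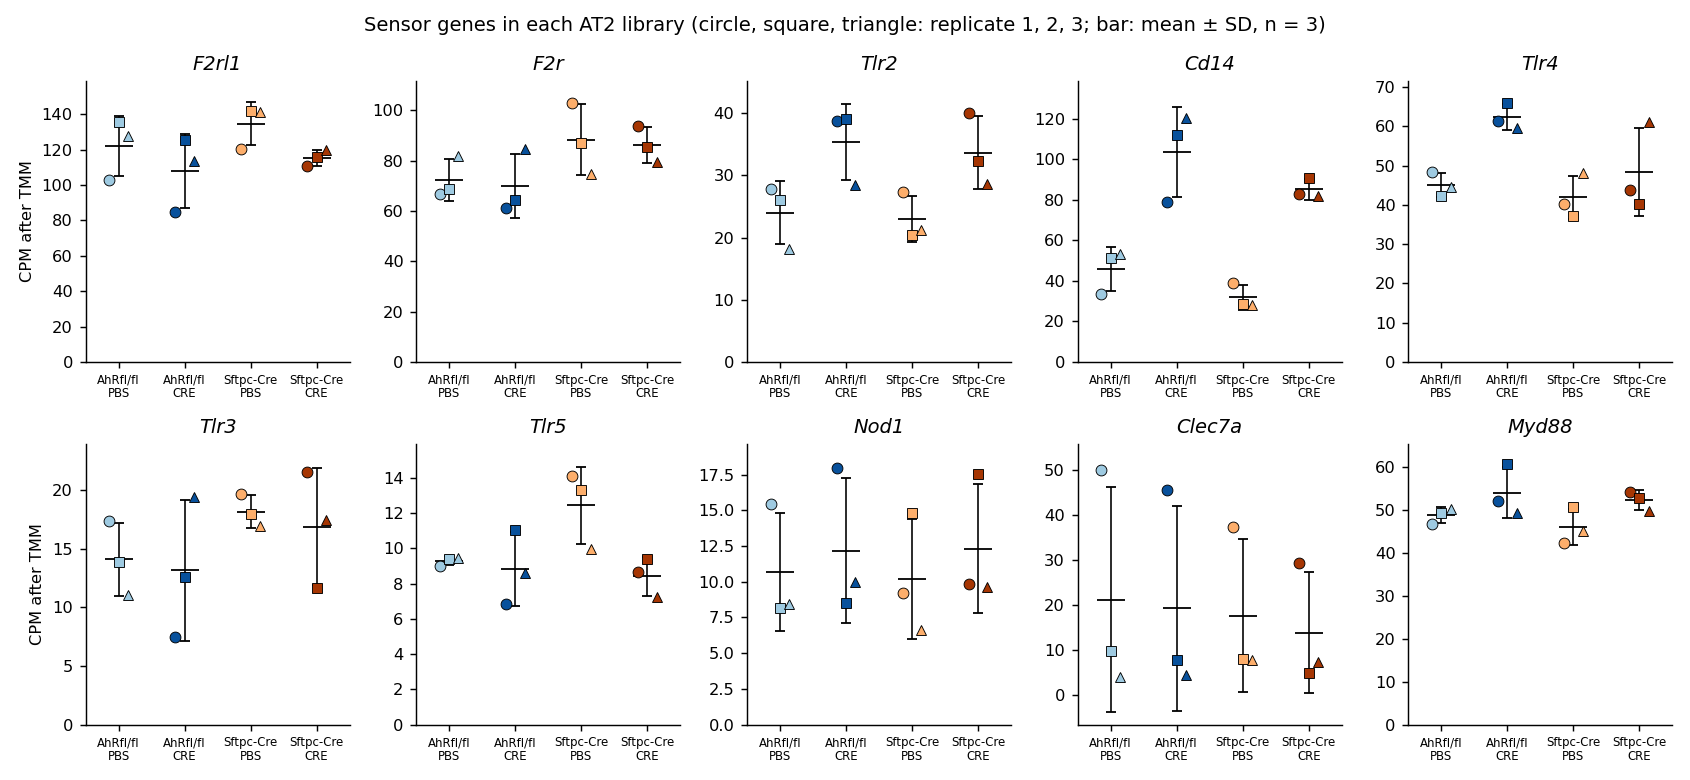
Level of each sensor gene in every library, as CPM after TMM scaling on linear axes, in the 4 groups (points, 1 library each, with the shape giving the replicate number; horizontal bar and whiskers, mean ± SD, n = 3). Cd14 stood at 28.1 to 53.4 CPM in the 6 PBS libraries and at 78.7 to 121 CPM in the 6 CRE libraries, and Clec7a was highest in the library numbered 1 of each group.

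The comparison of CRE with PBS asked how the allergen extract changed the genes that sense it. Cd14 rose in Sftpc-Cre cells and over both genotypes. Cd14, Tlr2, Tlr4 and Nod1 stood higher with CRE in every pair of the same genotype and number, and F2rl1 lower in every pair. The share of all genes with such pairs was not computed. No member was called lower in the fit of the 4 group means. In AhRfl/fl cells 0 of the 10 genes passed an adjusted p of 0.05, where 0.233% of all genes tested did, and 3 of the 10 passed an unadjusted p of 0.05, where 9.36% of all genes did. By DESeq2 1 of the 10 passed (Cd14), where 1.98% of all genes did, and with library size alone in place of TMM 1 (Cd14), where 0.31% did. In Sftpc-Cre cells 1 of the 10 passed, where 0.262% of all genes did, and 1 by DESeq2, where 1.23% did. An unadjusted p of 0.05 by edgeR was passed there by 3 of the 10 and by 1336 of all 20612 genes. In the average over genotypes it was passed by 5 of the 10 and by 2287 of all 20612 genes. Averaged over both genotypes 1 of the 10 passed, where 1.1% of all genes did, 2 by DESeq2 (Cd14 and Tlr2), where 3.59% did, and 2 with a block by replicate number (the same 2), where 2.57% did. The rule of the study's methods, an unadjusted limma p below 0.05 with an absolute log2 fold change above 0.5, took 2 of the 10 in AhRfl/fl cells, 3 in Sftpc-Cre cells and 2 in the average, where it took 4.11, 3.38 and 4.02% of all genes. The median log2 fold change of the 10 genes in the averaged comparison was 0.06, beside -0.0021 over all genes tested. CRE and PBS libraries of the same genotype and number deviated together (the check is described with the processing), so a fit with these pairs is given where it changes a call.

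Cd14, the membrane co-receptor that presents lipopolysaccharide to Tlr4, lies on chromosome 18 (GRCm38, 36725067 to 36726798, minus strand; ENSMUSG00000051439). In AhRfl/fl cells its level was 33.4, 51.2 and 53.4 CPM with PBS and 78.7, 112 and 121 CPM with CRE in libraries 1, 2 and 3. In Sftpc-Cre cells it was 39.0, 28.4 and 28.1 CPM with PBS and 82.6, 90.8 and 81.8 CPM with CRE. Every CRE library lay above every PBS library, in both genotypes. The fold change was 2.67 in Sftpc-Cre cells (log2 fold change 1.42, SE 0.21, edgeR quasi-likelihood test, Benjamini-Hochberg adjusted p = 0.0207). The call in Sftpc-Cre cells was lost when replicate 2 or 3 of either treatment was left out (adjusted p from 0.0772 to 0.108 in these 4 fits by edgeR). The fold was 2.25 in AhRfl/fl cells (log2 fold change 1.17, SE 0.21), which missed the threshold at an adjusted p of 0.0645 in the same edgeR fit and passed it at 0.00376 with pairs and at 0.00741 without the libraries numbered 1, where 0.253% of all genes passed. Averaged over genotypes it rose 2.45-fold (log2 fold change 1.29, SE 0.15, adjusted p = 0.00162 by edgeR), and it was called in all 23 alternative fits, with adjusted p-values up to 0.00766. The summed level of the 11 macrophage markers other than Lyz2 was lower with CRE in each of the 6 pairs, at 79.8 to 219 CPM with PBS and 76.1 to 197 CPM with CRE. With Lyz2 included, the sum was lower with CRE in the AhRfl/fl pairs and slightly higher in the Sftpc-Cre pairs. The Sftpc-Cre sums were 3041, 4037 and 4982 CPM with PBS and 3053, 4084 and 5045 CPM with CRE. The other 11 markers gave at most 219 CPM, so Lyz2 made up most of these sums. The 10 AT2 markers summed to 4512, 6310 and 8853 CPM with PBS and 4663, 6349 and 9190 CPM with CRE in the same libraries. The part of AT2 cells in the Lyz2 values was not tested. Of the 12 macrophage markers 4 had a positive and 8 a negative log2 fold change, and 0 of them passed by edgeR. With pairs 7 of the 12 passed in the average, where 6.59% of all genes did. Of these 7, 6 were lower with CRE (Siglecf, Ear2, Mrc1, Fabp4, Itgax and Mertk) and 1 higher (Adgre1), all named after their values were seen. Adgre1 was at 2.54 ± 3.39 CPM with PBS and 8.63 ± 9.84 CPM with CRE in AhRfl/fl cells (SD, n = 3). The part of macrophages and other leukocytes in the Cd14 values was not tested. The tested genes whose log2 CPM followed Cd14 most closely over the 12 libraries were Tjp3 (Pearson r = 0.97), Pir (0.96) and Ddit4 (0.96), given as a description since all of them share libraries and treatment.

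Tlr2, the receptor for bacterial lipopeptides whose promoter window is printed above, lies on chromosome 3 (83836272 to 83841767, minus strand; ENSMUSG00000027995). Its level in AhRfl/fl cells was 27.8, 26.1 and 18.2 CPM with PBS and 38.7, 39.1 and 28.4 CPM with CRE. In Sftpc-Cre cells it was 27.3, 20.4 and 21.3 CPM with PBS and 40.1, 32.3 and 28.7 CPM with CRE. All 6 CRE libraries lay above all 6 PBS libraries, as they did for Cd14, and 1.5% of all genes had 6 CRE and 6 PBS libraries that did not overlap. The log2 fold changes were 0.56 (SE 0.20) in AhRfl/fl cells and 0.55 (SE 0.20) in Sftpc-Cre cells, a fold of 1.47 and 1.46. Neither passed in the edgeR fit of the group means, with adjusted p = 0.397 and 0.633. With pairs both passed, at adjusted p = 0.0120 and 0.0145 by edgeR, and so did their average at 0.00166, against 0.113 without pairs. The 10 leukocyte markers, which stand for cells that also express Tlr2 and Tlr4, summed to 15.2 to 215 CPM with PBS and 15.8 to 181 CPM with CRE, and their part in these values was not tested. The genes whose log2 CPM followed Tlr2 most closely over the 12 libraries, named after their values were seen, were the formyl peptide receptor Fpr2 (Pearson r = 0.94) and the C-type lectin Clec4a1 (0.94), which are known from myeloid cells, and the cytokine subunit Ebi3 (0.93). With pairs 3.63% of all genes passed in AhRfl/fl cells, 2.13% in Sftpc-Cre cells and 6.59% in the average.

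Tlr4, the receptor that signals for lipopolysaccharide, lies on chromosome 4 (66827584 to 66930284, plus strand; ENSMUSG00000039005). With PBS it stood at 48.3, 42.3 and 44.5 CPM in AhRfl/fl cells and at 40.3, 37.3 and 48.0 CPM in Sftpc-Cre cells. With CRE it stood at 61.5, 66.0 and 59.5 CPM in AhRfl/fl cells and at 43.9, 40.3 and 61.2 CPM in Sftpc-Cre cells. The treatments were apart in AhRfl/fl cells and overlapped in Sftpc-Cre cells, where only library 3 with CRE lay above the PBS range. The log2 fold change was 0.47 (SE 0.15, edgeR adjusted p = 0.336) in AhRfl/fl cells and 0.21 (SE 0.15, adjusted p = 0.942) in Sftpc-Cre cells, or 0.0077 there without library 3 with CRE. With pairs the value in AhRfl/fl cells passed at an adjusted p of 0.0288 by edgeR and the average over genotypes at 0.0170, against 0.216 without pairs. The value in Sftpc-Cre cells did not pass with pairs (adjusted p = 0.330 by edgeR), and the test of the difference between genotypes is given below. Its partner Ly96 (MD-2), without which Tlr4 does not bind lipopolysaccharide, averaged 8.75 CPM with PBS and 9.40 CPM with CRE over both genotypes and did not pass (adjusted p = 0.881 by edgeR).

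**Figure D2:**
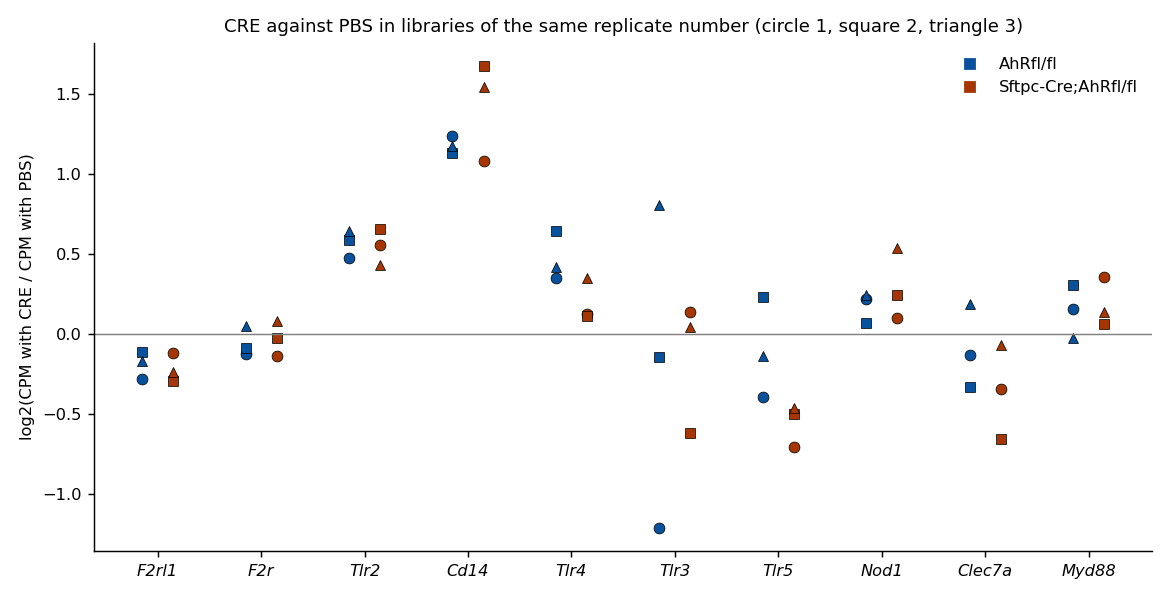
CRE response of each sensor gene as the log2 ratio of CPM with CRE to CPM with PBS in libraries of the same genotype and replicate number (blue, AhRfl/fl; brown, Sftpc-Cre;AhRfl/fl; circle 1, square 2, triangle 3). The 6 ratios of Cd14 lay between 1.08 and 1.68 and those of Tlr2 between 0.43 and 0.66, while those of Tlr3 ran from -1.21 to 0.81.

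Of the protease-activated receptors, neither was called with CRE in the fit of the group means. F2rl1, which trypsin-like and allergen proteases cut, lies on chromosome 13 (95511732 to 95525227, minus strand; ENSMUSG00000021678). It stood at 103, 136 and 128 CPM with PBS and 84.7, 125 and 113 CPM with CRE in AhRfl/fl cells, and at 121, 142 and 141 CPM with PBS and 111, 116 and 120 CPM with CRE in Sftpc-Cre cells. It was lower with CRE in 6 of 6 pairs, and the Sftpc-Cre libraries of the 2 treatments did not overlap. The average log2 fold change was -0.20 (SE 0.10), and its edgeR adjusted p was 0.519, or 0.0236 with pairs. F2r, the thrombin receptor, lies near F2rl1 on the same strand (95601803 to 95618487; ENSMUSG00000048376). Its level was 66.6, 68.7 and 81.8 CPM with PBS and 61.1, 64.5 and 84.6 CPM with CRE in AhRfl/fl cells. In Sftpc-Cre cells it was 103, 87.1 and 74.9 CPM with PBS and 93.7, 85.6 and 79.3 CPM with CRE. The groups overlapped in both genotypes, and the average log2 fold change was -0.04 (SE 0.10, edgeR adjusted p = 0.958). The other receptors of the family, F2rl2 (PAR3) and F2rl3 (PAR4), averaged 0.483 and 0.230 CPM with PBS.

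Tlr3, the receptor for double-stranded RNA, lies on chromosome 8 (45395665 to 45411080, minus strand; ENSMUSG00000031639) and overlaps Gm45542 on the other strand. It stood in AhRfl/fl cells at 17.3, 13.9 and 11.1 CPM with PBS and at 7.48, 12.6 and 19.4 CPM with CRE. In Sftpc-Cre cells it stood at 19.7, 18.0 and 16.9 CPM with PBS and at 21.6, 11.7 and 17.4 CPM with CRE. The PBS libraries lay within the span of the CRE libraries in both genotypes, and the average log2 fold change was -0.10 (SE 0.23, edgeR adjusted p = 0.948). Tlr3 was higher with CRE in 3 of 6 pairs and lower in the other 3, and its adaptor Ticam1 (TRIF) averaged 18.6 CPM with PBS and 18.2 CPM with CRE (adjusted p = 0.927).

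Tlr5, the receptor for flagellin, lies on chromosome 1 (182954788 to 182976044, plus strand; ENSMUSG00000079164). Its level was 9.02, 9.42 and 9.46 CPM with PBS and 6.86, 11.1 and 8.58 CPM with CRE in AhRfl/fl cells. In Sftpc-Cre cells it was 14.1, 13.3 and 9.94 CPM with PBS and 8.65, 9.40 and 7.22 CPM with CRE. The Sftpc-Cre libraries did not overlap, with all 3 CRE libraries below the PBS libraries, and the AhRfl/fl libraries did. The log2 fold change in Sftpc-Cre cells was -0.56 (SE 0.20), and its edgeR adjusted p was 0.606, or 0.106 with pairs. Counted together, the libraries of the 2 treatments did not overlap for 3 of the 10 genes in AhRfl/fl cells (Tlr2, Tlr4 and Cd14, all higher with CRE), where 16.5% of all genes did not overlap. In Sftpc-Cre cells they did not overlap for 4 of the 10 (Tlr2 and Cd14 higher, F2rl1 and Tlr5 lower), where 11.8% of all genes did not.

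Myd88, the adaptor shared by most Toll-like receptors, lies on chromosome 9 (119335934 to 119341411, minus strand; ENSMUSG00000032508). Its annotated span overlaps Slc22a14 on its own strand and Acaa1a on the other, so reads from the shared stretches could have been assigned to either gene. With PBS it stood at 46.7, 49.3 and 50.2 CPM in AhRfl/fl cells and at 42.4, 50.7 and 45.1 CPM in Sftpc-Cre cells. With CRE it stood at 52.0, 60.8 and 49.3 CPM in AhRfl/fl cells and at 54.2, 52.9 and 49.6 CPM in Sftpc-Cre cells. The groups overlapped, and Myd88 was higher with CRE in 5 of 6 pairs. The average log2 fold change was 0.17 (SE 0.07, edgeR adjusted p = 0.366). The kinase Irak4, which binds Myd88, averaged 14.3 CPM with PBS and 15.0 CPM with CRE (adjusted p = 0.858).

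Nod1 and Clec7a moved between libraries more than between treatments. Nod1, which binds peptidoglycan fragments inside the cell, lies on chromosome 6 (54923949 to 54972612, minus strand; ENSMUSG00000038058). It stood at 15.4, 8.14 and 8.44 CPM with PBS and 17.9, 8.53 and 10.0 CPM with CRE in AhRfl/fl cells, and at 9.19, 14.8 and 6.62 CPM with PBS and 9.83, 17.5 and 9.61 CPM with CRE in Sftpc-Cre cells. Libraries 1 of AhRfl/fl cells and libraries 2 of Sftpc-Cre cells were the highest, in both treatments. The 6 fibroblast markers summed to 178 and 199 CPM in those AhRfl/fl libraries and to 232 and 271 CPM in those Sftpc-Cre libraries, and to 75.0 to 158 CPM in the other 8. Nod1 was higher with CRE in 6 of 6 pairs by 0.07 to 0.54 on the log2 scale, and its average log2 fold change of 0.23 (SE 0.28) did not pass (adjusted p = 0.876 by edgeR, 0.138 with pairs). Its kinase Ripk2 averaged 28.3 CPM with PBS and 32.1 CPM with CRE (adjusted p = 0.152).

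Clec7a lies on chromosome 6 (129461591 to 129472779, minus strand; ENSMUSG00000079293), where the annotation lists it as a polymorphic pseudogene. It stood in AhRfl/fl cells at 50.1, 9.76 and 3.96 CPM with PBS and at 45.6, 7.76 and 4.50 CPM with CRE. In Sftpc-Cre cells it stood at 37.4, 7.94 and 7.79 CPM with PBS and at 29.4, 5.03 and 7.41 CPM with CRE. The libraries numbered 1 were the highest in each group, and the groups overlapped. The 10 leukocyte markers summed to 146 to 215 CPM in these 4 libraries and to 15.2 to 54.3 CPM in the other 8. Its average log2 fold change with CRE was -0.24 with an SE of 0.80 (adjusted p = 0.972 by edgeR), and Card9, the adaptor of Clec7a, averaged 1.38 CPM with PBS and 0.957 CPM with CRE. The part of other cells in the Clec7a and Nod1 levels was not tested.

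**Figure D3:**
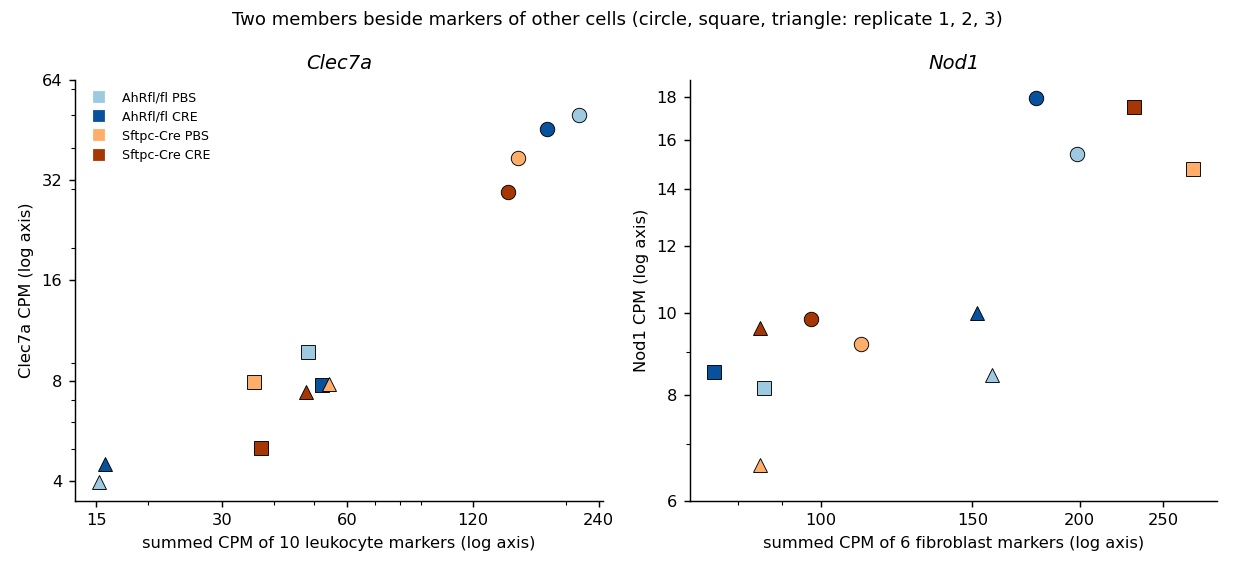
Clec7a against the summed CPM of 10 leukocyte markers (left) and Nod1 against the summed CPM of 6 fibroblast markers (right), 1 point per library on log axes, coloured by group, with the shape giving the replicate number. The 4 libraries numbered 1 held 29.4 to 50.1 CPM of Clec7a and the other 8 libraries 3.96 to 9.76 CPM.

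The comparison of the genotypes asked whether loss of AhR in AT2 cells changed the sensors. With PBS, 0 of the 10 genes passed, where 0.15% of all genes did, and 1 passed an unadjusted p of 0.05, where 8.37% of all genes did. With CRE, 0 passed, where 0.17% of all genes did, and again 1 passed an unadjusted p of 0.05, where 5.95% did. DESeq2 called 0 in both comparisons, where it called 1.18 and 0.844% of all genes, and the rule of the study's methods took 1 (Cd14) with PBS and 0 with CRE, where it took 4.1 and 3.42%. Cd14 with PBS averaged 46.0 ± 11.0 CPM in AhRfl/fl and 31.9 ± 6.22 CPM in Sftpc-Cre cells (SD, n = 3), or -0.53 on the log2 scale (SE 0.21, edgeR adjusted p = 0.529). Library 1 was the lowest of its AhRfl/fl group and the highest of its Sftpc-Cre group. Without the 4 libraries numbered 1, an alternative chosen after the data were seen, the difference was -0.88 (edgeR adjusted p = 0.0308), where 0.117% of all genes passed. The 10 AT2 markers summed to 7696 to 8664 CPM in the AhRfl/fl and to 4512 to 8853 CPM in the Sftpc-Cre libraries with PBS, lowest in Sftpc-Cre library 1, and the part of this spread in the Cd14 difference was not tested. With CRE the difference in Cd14 was -0.29 (SE 0.20), from 104 ± 22.1 to 85.1 ± 4.98 CPM (SD, n = 3), and it did not pass with those libraries (adjusted p = 0.984 by edgeR) or without them (adjusted p = 0.311).

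Tlr5 was the 1 gene of the 10 whose genotypes did not overlap, with PBS, where 14.0% of all genes did not. It averaged 9.30 ± 0.245 CPM in AhRfl/fl and 12.4 ± 2.20 CPM in Sftpc-Cre cells (SD, n = 3), with a log2 fold change of 0.42 (SE 0.20, edgeR adjusted p = 0.609). With CRE the genotypes overlapped for all 10 genes, where 11.0% of all genes did not overlap. Tlr4 with CRE averaged 62.3 ± 3.34 CPM in AhRfl/fl and 48.5 ± 11.2 CPM in Sftpc-Cre cells (SD, n = 3), with a log2 fold change of -0.36 (SE 0.15, edgeR adjusted p = 0.802). F2r was 0.29 and 0.30 higher on the log2 scale in Sftpc-Cre cells with PBS and with CRE (SE 0.15 for both), with adjusted p = 0.649 and 0.875 by edgeR. For F2rl1, Tlr2, Tlr3, Nod1, Clec7a and Myd88 the differences ran from -0.47 to 0.37, and each had an adjusted p of 0.853 or more by edgeR.

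**Figure D4:**
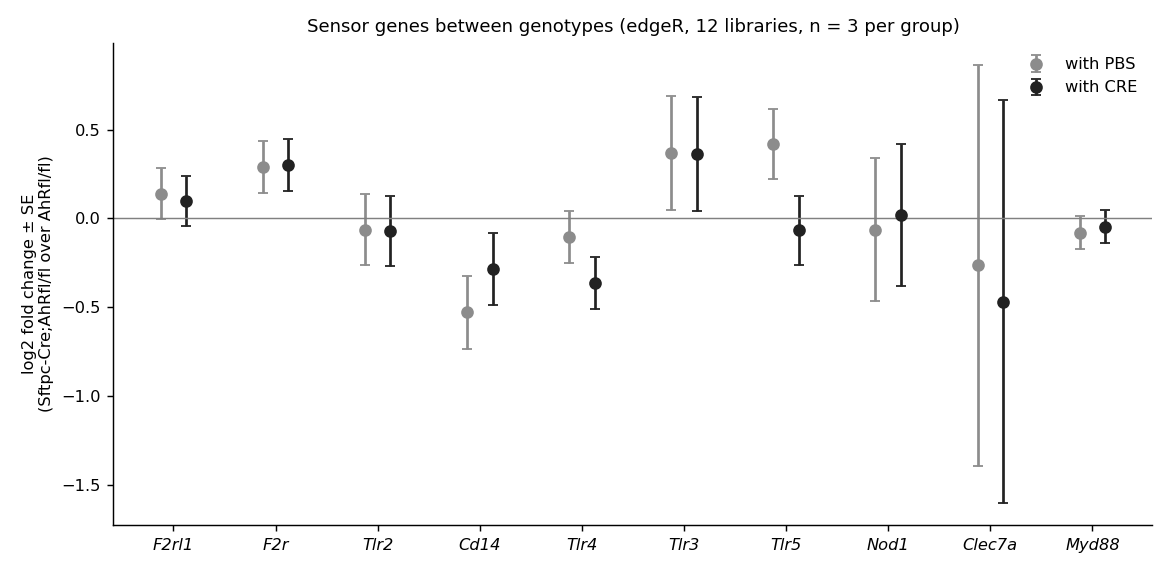
Difference between Sftpc-Cre;AhRfl/fl and AhRfl/fl cells for each sensor gene as log2 fold change ± SE from edgeR, with PBS (grey) and with CRE (black), n = 3 libraries per group. None of the 20 values passed an adjusted p of 0.05, and the widest errors belonged to Clec7a, with an SE of 1.13.

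The CRE response was also compared between genotypes directly, as an interaction term. By the edgeR quasi-likelihood test 0 of the 10 genes and 0 of the 20612 genes tested passed (0.0%), while 763 genes passed an unadjusted p of 0.05 and DESeq2 called 23 genes (0.112%), 0 of them among the 10. The lowest p among the 10 was 0.107 for Tlr5 in the edgeR fit, with a difference of -0.49 (SE 0.28). The difference was -0.26 (SE 0.21) for Tlr4 and 0.24 (SE 0.29) for Cd14. For Cd14 it ran from 0.080 to 0.43 when 1 library was left out, and without the 4 libraries numbered 1 it was 0.45 (SE 0.12) with an unadjusted p of 0.00855 and an adjusted p of 1.00 by edgeR. With pairs, Tlr4 (-0.27, SE 0.11) and Tlr5 (-0.45, SE 0.19) had unadjusted p-values of 0.0434 and 0.0478, and adjusted p-values of 0.538 and 0.547 by edgeR. A larger CRE response of Tlr4 in AhRfl/fl cells than in Sftpc-Cre cells was therefore not shown.

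Around the 10 genes, 114 genes of the same pathways were read from 6 lists. The genes that NF-kB and the receptors induce held most of the calls. Because the lists were chosen with earlier results of these data known, the counts per list are a description and not a test. Of 23 induced targets tested, 12 rose with CRE in the average over genotypes and 0 fell (edgeR, adjusted p of 0.05), where 1.1% of all genes passed. Their median log2 fold change was 1.53, beside -0.0021 over all genes. In AhRfl/fl cells 5 rose (Cxcl1, Cxcl2, Cxcl5, Ccl20 and Nfkbiz), where 0.233% of all genes passed. In Sftpc-Cre cells 6 rose, the same 5 and Lcn2, where 0.262% of all genes passed. Among the neutrophil chemokines, Cxcl5 went from 5.06 to 58.3 CPM (log2 fold change 3.60, SE 0.26), Cxcl2 from 3.76 to 41.5 CPM (3.46, SE 0.31), Cxcl1 from 4.35 to 33.9 CPM (2.99, SE 0.32) and Cxcl3 from 6.33 to 45.6 CPM (2.86, SE 0.48). The chemokine Ccl20 rose from 1.17 to 7.53 CPM, the iron-binding lipocalin Lcn2 from 32.9 to 101 CPM and the alarmin Il33 from 16.9 to 40.5 CPM. The growth factors Csf2 and Csf3 rose by 1.59 and 1.41 on the log2 scale, the acute-phase gene Saa3 by 3.80, Nfkbiz by 1.53 and Nfkb2 by 0.30. With pairs 19 of the 23 passed in the average, 18 in AhRfl/fl and 17 in Sftpc-Cre cells, where 6.59, 3.63 and 2.13% of all genes did. In the average without the libraries numbered 1, Csf2, Csf3 and Nfkb2 did not pass (edgeR adjusted p = 0.160, 0.0533 and 0.0608). Ptgs2, the prostaglandin synthase, was lower in Sftpc-Cre cells with PBS (553 against 284 CPM, log2 fold change -0.96, adjusted p = 0.0414 by edgeR) and with CRE (839 against 377 CPM, -1.15, adjusted p = 0.0114), and neither passed without the libraries numbered 1 (adjusted p = 0.341 and 0.201).

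Fewer genes passed between the receptors and these targets. The counts that follow are for the average over genotypes, where 1.1% of all genes passed by edgeR and 6.59% with pairs. Of 13 negative regulators, Nfkbia, the inhibitor that holds NF-kB in the cytoplasm, rose from 71.3 to 138 CPM (log2 fold change 0.96, SE 0.05, adjusted p = 2.93e-05 by edgeR), and it rose in each genotype. With pairs 4 of the 13 passed in the average (Nfkbia, Tnip1 and Dusp1 higher, Pdlim2 lower). Of 21 adaptors and kinases, Ikbkg (NEMO), which overlaps G6pdx on the other strand, rose from 82.2 to 152 CPM (0.88, SE 0.14, adjusted p = 0.0140), and with pairs Syk and Tbk1 passed as well, both higher with CRE. Of 14 co-receptors and ligand handling genes, Cd36, a scavenger receptor that works with Tlr2, rose from 111 to 263 CPM (1.23, SE 0.13, adjusted p = 0.00116), and Ager, which is also an AT1 marker, fell from 592 to 336 CPM (-0.83, SE 0.17, adjusted p = 0.0472), a call that held in 13 of 23 alternative fits. With pairs Msr1 and Mrc1 passed as well, both lower with CRE and, like Syk, Tbk1, Tnip1, Dusp1 and Pdlim2, named after their values were seen. Of 22 proteases, inhibitors and G protein partners of the protease-activated receptors, 0 passed by edgeR and 4 passed with pairs (St14, Tmprss2, F3 and Procr, named after their values were seen). Of 19 other sensors tested, 0 passed and 4 passed with pairs (Nod2, Clec4e, Clec4n and Clec4d, likewise). The partners of Tlr2 in lipopeptide binding, Tlr1 and Tlr6, averaged 2.46 and 0.710 CPM with PBS, and Lbp, which delivers lipopolysaccharide to Cd14, averaged 5.59 CPM with PBS and 6.64 CPM with CRE (adjusted p = 0.549 by edgeR).

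**Figure D5:**
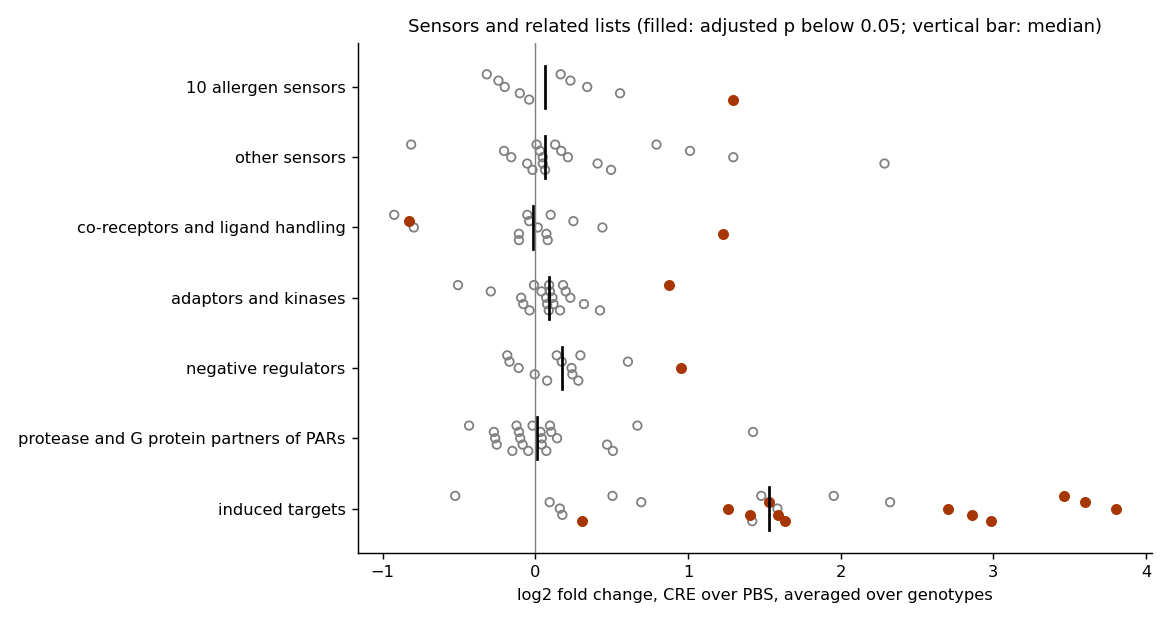
Log2 fold change with CRE averaged over genotypes for the 10 sensors and the genes of 6 related lists, 1 point per gene (filled, adjusted p below 0.05 by edgeR; vertical bar, median of the list). The induced targets had a median of 1.53, and the medians of the other lists lay between -0.01 and 0.17.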

How the data were processed

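RNA-seq libraries (TruSeq stranded mRNA) were made from AT2 cells purified by removal of cells binding antibodies to CD16/32, CD45, Ter119 and Sca-1. The authors aligned reads to GRCm38 with STAR 2.7.2b and counted them per gene (Partek and Salmon are named in the submitters' processing notes). The deposited counts are whole numbers per gene, not normalized, and the authors also deposited FPKM values per gene, which were used only for levels between genes. Symbols and positions of all 55450 genes were taken from GENCODE M21. The annotation release behind the counts is not given in the sources used here, nor whether counting used the strand.

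The members and the gene lists were chosen with earlier results of these data known. Every member is named. From the lists, genes called in any of 6 comparisons and the partners of a member are named.

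Counts were fitted with edgeR 4.0.16 (R 4.3.3) as 4 group means over all 12 libraries, with TMM, filterByExpr (minimum count 10), the quasi-likelihood test and Benjamini-Hochberg adjustment over 20612 genes. Deviations of CRE and PBS libraries of the same number correlated within genotype (r = 0.729, 0.418 and 0.651 in AhRfl/fl and 0.589, 0.542 and 0.325 in Sftpc-Cre cells, over 14543 genes of at least 1 CPM), a pairing that the labels do not state, so the fit with these pairs, which has 4 residual degrees of freedom against 8, is printed where it changes the call of a member, and for the gene lists as counts in the average over genotypes. Between genotypes, libraries share only a number in the labels. Deviations of the libraries numbered 1 correlated there too (r = 0.420 with PBS and 0.413 with CRE). Those numbered 2 and 3 had r = 0.0416 and 0.106 with PBS and -0.0286 and 0.0867 with CRE. On simulated data for CRE in AhRfl/fl cells (19985 genes), 65 of 95 genes changed 4-fold and 33 of 94 changed 2-fold were recovered, and 2 unchanged genes were called. The simulated libraries were drawn independently, without the deviations that libraries of the same number share here. These counts therefore cannot tell how often the fit finds or misses changes in the real libraries. Alternatives were limma 3.58.1, DESeq2 1.42.0, other scalings and filters, replicate blocks and libraries left out. A count of 3 reads corresponds to 0.0371 to 0.0436 CPM, and read counts without molecular identifiers give counting error only. Promoter windows were searched with Python 3.11.15. Amino acid sequences were not used here.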

Additional observations from a re-analysis of the deposited data

How the results depend on the processing

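Cd14 passed with CRE averaged over genotypes in all 23 alternatives, and leaving out 1 library left 1 member called each time. In AhRfl/fl cells, against 0 in the fit of 4 group means, 1 member (Cd14) was called with library size alone, with DESeq2 and without the 4 libraries numbered 1 (chosen after seeing the data), 2 (Cd14 and Tlr2) by the study's rule of an unadjusted limma p below 0.05 with an absolute log2 fold change above 0.5, and 3 (Cd14, Tlr2 and Tlr4) with the replicate block within genotype. In Sftpc-Cre cells, against 1, the study's rule called 3 (Cd14, Tlr2 and Tlr5) and the block within genotype 2 (Cd14 and Tlr2). In the average, against 1, DESeq2, the study's rule and the replicate block by number each called 2 (Cd14 and Tlr2) and the block within genotype 4 (F2rl1, Tlr2, Tlr4 and Cd14). Between genotypes with PBS, against 0, the study's rule and the fit without the libraries numbered 1 each called 1 (Cd14). The block changed no other call of a member, and a block by number called no member between genotypes. Leaving out 1 library gave 0 to 1 calls in AhRfl/fl cells and 0 to 1 in Sftpc-Cre cells. Among all genes, CRE in AhRfl/fl cells called 48 genes, 409 by DESeq2 and 748 with pairs, and the average 226, 740 and 1358.

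Of 1160 values of single members under alternatives, 1043 kept direction and call, and the 93 that changed sign were uncalled values near 0 or with wide errors. Without the libraries numbered 1, log2 fold changes turned to 0.36 (Tlr3) and 0.059 (Tlr5) for CRE in AhRfl/fl cells, 0.018 (F2r) in Sftpc-Cre cells, 0.0041 (F2r) and 0.046 (Tlr3) in the average, 0.38 (Nod1) and 0.20 (Clec7a) between genotypes with PBS, -0.025 (F2rl1), -0.14 (Tlr3) and 0.016 (Clec7a) between genotypes with CRE, and -0.057 (Myd88) for the difference of the CRE response. Clec7a between genotypes with PBS was 0.084 by limma-trend and the study's rule, 0.095 by limma-voom and 0.031 with the block by number. For the difference of the CRE response, F2r was -0.0176 with library size alone, and Tlr3 was 0.035 by limma-trend and the study's rule, 0.051 by limma-voom and 0.033 with the block within genotype. The cause was not tested.

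Leaving out 1 library at a time moved the following log2 fold changes across 0. For CRE in AhRfl/fl cells these were F2r (-0.20 to 0.051), Tlr3 (-0.49 to 0.18), Tlr5 (-0.27 to 0.079), Nod1 (-0.20 to 0.55) and Clec7a (-1.79 to 1.49). For CRE in Sftpc-Cre cells they were F2r (-0.14 to 0.089), Tlr3 (-0.32 to 0.10), Nod1 (-0.072 to 0.64) and Clec7a (-1.51 to 0.83), and in the average F2r (-0.12 to 0.021), Tlr3 (-0.30 to 0.039) and Clec7a (-1.07 to 0.57). Between genotypes with PBS they were Tlr2 (-0.23 to 0.056), Nod1 (-0.43 to 0.30) and Clec7a (-1.43 to 1.37). Between genotypes with CRE they were F2rl1 (-0.048 to 0.22), Tlr2 (-0.22 to 0.032), Tlr5 (-0.22 to 0.13), Myd88 (-0.11 to 0.046), Nod1 (-0.31 to 0.41) and Clec7a (-1.63 to 1.19). For the difference of the CRE response they were F2rl1 (-0.19 to 0.081), F2r (-0.095 to 0.17), Tlr2 (-0.15 to 0.16), Tlr3 (-0.29 to 0.39), Myd88 (-0.028 to 0.13), Nod1 (-0.28 to 0.47) and Clec7a (-1.84 to 1.45).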

Other observations

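Markers of epithelial cells were also compared between treatments in the average over genotypes, where 1.1% of all genes passed by edgeR and 6.59% with pairs. Of 8 AT1 markers, 3 fell with CRE in the average over genotypes (Ager, Rtkn2 and Clic5) and 0 rose, by edgeR at an adjusted p of 0.05, with a median log2 fold change of -0.51 beside -0.0021 over all genes. Of 10 AT2 markers, Etv5 fell. With pairs 5 of the 8 AT1 markers passed, all lower with CRE, and 5 of the 10 AT2 markers, 4 lower and 1 (Lamp3) higher. Of 10 other leukocyte markers 0 passed, and with pairs 1 (Cd79a, lower), and of 6 fibroblast markers 0, and with pairs 3 (lower). The myeloid C-type lectins Clec4e, Clec4n and Clec4d, named after their values were seen, went from 1.41 to 6.83, from 16.0 to 27.9 and from 6.38 to 12.8 CPM with CRE. They did not pass in the edgeR fit of the group means and passed with pairs (adjusted p = 0.00708, 0.00322 and 0.00261 by edgeR, against 0.309, 0.856 and 0.780). Nod2, the muramyl dipeptide sensor, went from 0.971 to 2.33 CPM (adjusted p = 0.0504 by edgeR, 0.0204 with pairs), while Nod1 went from 10.4 to 12.2 CPM.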
